A study of Mus musculus with 2 samples.

Results

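The Stat and Jak genes were examined as 9 loci, Stat2, Stat6, Stat4, Stat3, Stat5a, Stat5b, Jak1, Jak2 and Jak3, for their cover by H3K36me2, which is histone H3 with 2 methyl groups on lysine 36. Each locus was the RefSeq gene body on the mm10 build with 10 kb on either side, and every region of the deposited lists that overlapped such a window by at least 1 bp was taken. This gave 65 of 39745 regions in the knockout list and 63 of 54527 regions in the wild-type list, over 9 of 21627 coding genes on chromosomes 1 to 19 and X. The material was regulatory T (Treg) cells from spleen of mice on the C57BL/6 background. The groups were Treg cells with a conditional knockout of Nsd2, a histone methyltransferase gene that encodes a writer of the mark, and Treg cells labelled wild type. Each genotype had 1 library, so differences below have no replicate check and no p-value, and intervals cover counting error only. No source used here gives the Cre driver, the age or sex of the mice, or how many animals went into a library. The Nsd2 deletion itself cannot be checked from such region lists.

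JAK kinases sit on the cytoplasmic tails of cytokine receptors and are activated when a cytokine binds. They phosphorylate the receptor and then STAT proteins, which pair up, enter the nucleus and bind DNA at their target genes. In Treg cells, IL-2 acts through JAK1, JAK3 and STAT5, and STAT5 supports expression of Foxp3. H3K36me2 is a broad mark of gene bodies and of the space between genes, and the region lists record where its signal passed a threshold, not its amount below that threshold.

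The knockout library held 14789700 tags and the wild-type library 17158154. A peak needed 12 tags in the knockout and 13 in wild type, which is 8.11 and 7.58 tags once both libraries are scaled to 10000000 tags, so the bar was higher in the knockout list. The lowest deposited scores were also 12 and 13, so the bar appears to apply to the score. The normalised tags of regions given below are another count, and some are under these bars. Over the whole genome the knockout list covered 31.6 Mb and the wild-type list 42.5 Mb, a knockout length 74.4% of wild type. Within the windows of all coding genes, joined where they overlap, the figure was 76.2%. Windows of T and Treg cell marker genes were covered to 19.7% in the knockout and 17.7% in wild type, and 9 of 9 held a region in each library, Foxp3 among them. Windows of marker genes of B cells, myeloid cells, NK and CD8 T cells and erythroid cells were covered to between 1.51% and 3.76% in the knockout and between 2.76% and 4.11% in wild type. These lists were uneven. Cd14, Adgre1, Ncr1 and Alas2 held no region in either library. In contrast, Cd79a was covered to 16.4% in the knockout and 8.79% in wild type, and Cd79b to 8.92% and 12.1%. Spi1 was covered to 13.5% and 8.41%, and Klf1 to 13.5% and 11.7%, within the range of some T and Treg cell markers such as Cd3e, with 10.6% and 4.09%.

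Over the joined windows of the 9 genes, regions covered 63600 bp in the knockout and 54849 bp in wild type, so the knockout length was 116% of wild type. The tags in these regions, scaled by the authors to 10000000 per library, summed to 1085 in the knockout (95% Poisson interval 1033 to 1140) and 879 in wild type (835 to 924). Their ratio was 1.24 (1.15 to 1.33). The number of regions was nearly the same, 65 against 63, a ratio of 1.03 (0.718 to 1.48). Leaving out the joined Stat5b, Stat5a and Stat3 locus, the covered length was still 113% of wild type, with 35038 bp in the knockout and 30910 bp in wild type.

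Of the 9 windows, 7 had a longer covered length in the knockout and 2, those of Stat6 and Jak2, a shorter one. Among the 7, Jak1 was longer by 94 bp and Stat2 by 500 bp. The windows of Stat5b, Stat5a and Stat3 share regions, so the 7 are not independent. Among all coding windows with a region, 36.6% were longer in the knockout by any amount and 59.3% shorter. A window was counted as different when covered lengths differed at least 1.5-fold and the longer was at least 2000 bp, which is a rule about size only. By it, 1 of the 8 Stat and Jak windows long enough to be measured, Jak3, was higher in the knockout and none was lower. Over 6252 measured coding windows the same rule counted 16.5% (1030) as higher and 40.5% (2531) as lower, 57% in all. With regions of 500 bp held to a common tag threshold, 1498 of 5530 measured coding windows (27.1%) were higher and 1540 (27.8%) lower, and 3 of 8 Stat and Jak windows were higher, Stat3, Stat5a and Jak3. All knockout regions already met that threshold, so it removed wild-type regions only. After division of knockout lengths by the whole-list ratio, 2314 of 6966 (33.2%) were higher and 1721 (24.7%) lower, and 5 of the 8 measured Stat and Jak windows were higher, Stat4, Stat3, Stat5a, Stat5b and Jak3. The median difference in covered share was 1.498 percentage points over the 9 windows and -0.57 points over all 14282 coding windows with a region. In bands of mean covered share over both libraries, chosen after the values were seen, the coding windows differed in this respect. Of 524 windows with a mean share of at least 20%, the band of Stat5a and Stat5b, 52.5% were longer in the knockout, with a median difference of 0.57 points. Of 2206 windows between 5 and 10%, the band of Stat4, Stat3 and Jak3, 38.9% were longer, with a median difference of -1.18 points. By the rule of size, 21.3% of the 1937 measured windows of that band were higher and 36.8% lower. Between 10 and 20%, the band of Stat6 and Jak1, 45.3% of 1311 windows were longer, with a median difference of -0.49 points. Under 5%, the band of Stat2 and Jak2, 34.2% of 10241 were longer, with a median difference of -0.54 points. The difference was 7.55 points for Stat5a and 3.30 points for Stat5b, above those of 97.4% and 90.7% of all coding windows with a region. Of those 14282 windows, 10241 had a mean share under 5%, which limits the difference they can show. Ranks inside the band of at least 20% were not computed. The genes were proposed with results of these libraries known, so these counts describe the 2 libraries and test nothing.

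**Figure D1:**
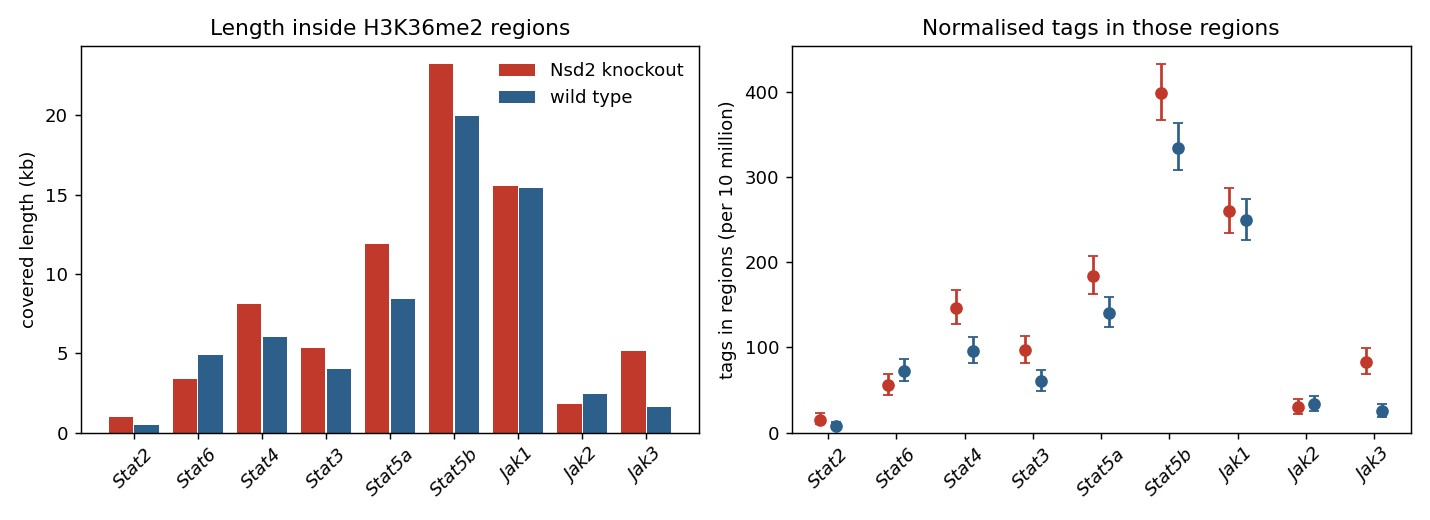
Covered length in kb (left, bars) and normalised tags in the regions with 95% Poisson intervals (right, points) for each gene window, knockout in red and wild type in blue. Stat5b and Jak1 hold the longest cover, and Jak3 has the widest relative gap, 5160 bp in the knockout and 1625 bp in wild type.

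The adjoining genes Stat5b, Stat5a and Stat3 lie on chromosome 11, with Stat5b at 100780731 to 100859004 on the minus strand, Stat5a at 100859351 to 100885169 on the plus strand and Stat3 at 100886806 to 100939594 on the minus strand. As 1 locus of 179 kb, with the flanks, they were covered over 28562 bp in the knockout and 23939 bp in wild type, 119% of the wild-type length. The cover came in 19 regions in the knockout and 23 in wild type. Fewer but longer regions thus made up the larger knockout length. The longest measured 8572 bp in the knockout and 2651 bp in wild type. Neighbouring windows share regions here, so the values of the 3 genes are not independent.

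Stat5b, which encodes a STAT5 protein activated by IL-2 and growth hormone, had the highest wild-type covered share of the 9 windows. It was covered to 23.6% in the knockout and 20.3% in wild type, or 23205 bp and 19958 bp, above 98.1% of all coding windows in the knockout and 97.4% in wild type. Its regions held 399 normalised tags in the knockout (367 to 433) and 335 in wild type (308 to 363). The ratio was 1.19, with an interval of 1.06 to 1.34. In both libraries the cover was concentrated in the upstream part of the gene. From the gene start to the midpoint 41.7% was covered in the knockout and 34.3% in wild type, and from the midpoint to the gene end 8.81% and 9.23%.

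Stat5a, the other STAT5 gene, was covered to 25.9% in the knockout and 18.4% in wild type, 11869 bp and 8411 bp. Normalised tags came to 184 in the knockout (163 to 207) and 141 in wild type (124 to 160), a ratio of 1.31 (1.09 to 1.56). The 10 kb upstream of Stat5a, which lie almost wholly within Stat5b, held 7565 bp of this length in the knockout and 4057 bp in wild type. They were covered to 75.7% in the knockout and 40.6% in wild type, while the part of the gene beyond its midpoint held 500 bp in each. Without the flanks, the Stat5a body was covered to 13.9% in the knockout and 10.5% in wild type.

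The longest knockout region of all 9 loci spanned the beginning of the annotated gene body of both STAT5 genes, which face away from each other. This was the 8572 bp region chr11:100853379-100861951, with 134 normalised tags (116 to 154), and it reached 5.625 kb into Stat5b and 2.60 kb into Stat5a. Of the starts listed with RefSeq promoter sequences, those of Stat5a lay inside it and those of Stat5b did not. Wild type had 3 separate regions at this place, of 2155, 792 and 2216 bp, which covered 4956 bp of it and together held 87.7 normalised tags. The ratio of tags was 1.53 (1.23 to 1.91), for a region singled out by its length. Inside Stat5b, a knockout region of 3792 bp with 78.1 normalised tags contained the longest wild-type region, the 2651 bp of chr11:100844735-100847386 with 50.7. Both wide wild-type stretches were therefore also marked in the knockout. Further into Stat5b, the knockout region chr11:100817783-100819835 with 41.6 normalised tags contained the wild-type region chr11:100817990-100819608 with 33.5. The neighbouring wild-type region of 1496 bp and 24.5 normalised tags at chr11:100814357-100815853 had no base in a knockout region.

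**Figure D2:**
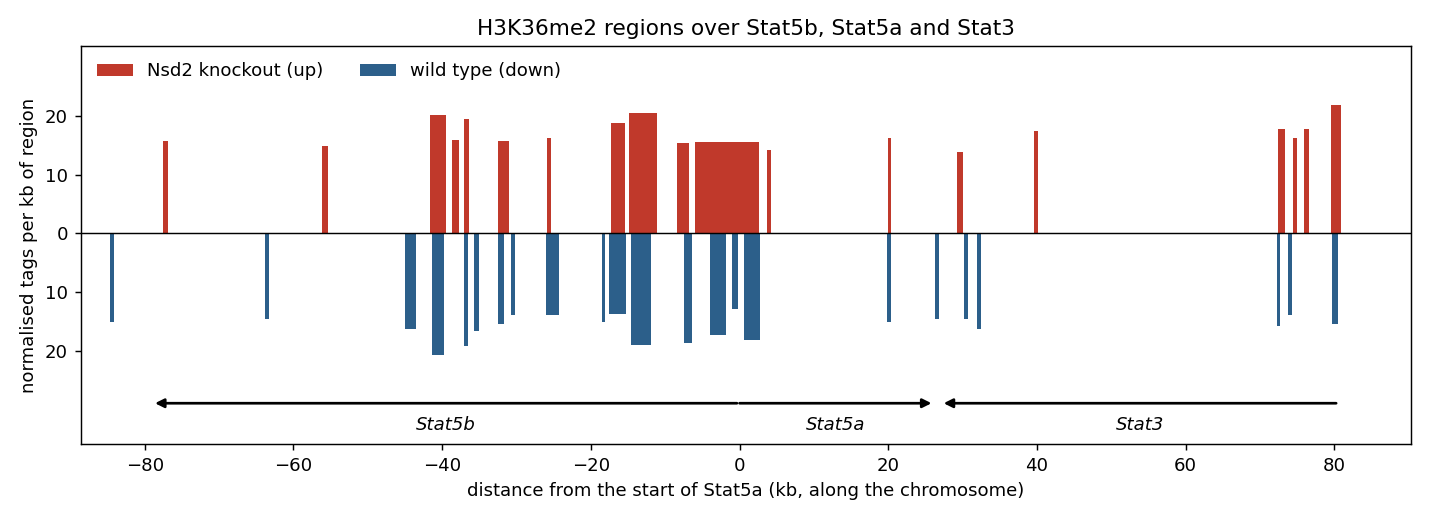
Regions over Stat5b, Stat5a and Stat3, drawn as blocks as wide as the region and as high as its normalised tags per kb, knockout upward in red and wild type downward in blue, against distance in kb from the start of Stat5a. Arrows show the direction of each gene. The 8572 bp knockout block ending just inside Stat5a stands above 3 shorter wild-type blocks, and the middle of Stat3 is empty in both libraries.

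RefSeq promoter sequences show what the longest knockout region spans. The table lists 2 starts for Stat5a, and the 250 bases before each are given here because the first lay inside the knockout region only and the second inside a region of both libraries. Capitals mark CG pairs, sequences are from GRCm38.p6, the assembly called mm10, and run 5' to 3' along the gene.
Stat5a first start, chr11:100859406-100859655, plus strand: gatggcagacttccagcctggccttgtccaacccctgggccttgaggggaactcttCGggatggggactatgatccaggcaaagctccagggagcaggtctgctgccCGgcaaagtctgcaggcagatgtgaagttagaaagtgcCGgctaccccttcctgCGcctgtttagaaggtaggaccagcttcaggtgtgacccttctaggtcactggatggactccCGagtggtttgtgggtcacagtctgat
Stat5a second start, chr11:100860234-100860483, plus strand: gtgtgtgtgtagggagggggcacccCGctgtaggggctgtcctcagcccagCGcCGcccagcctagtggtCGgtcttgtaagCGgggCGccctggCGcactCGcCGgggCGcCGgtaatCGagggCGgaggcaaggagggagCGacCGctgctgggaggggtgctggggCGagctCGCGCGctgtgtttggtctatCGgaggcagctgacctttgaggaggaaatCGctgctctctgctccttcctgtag
The first holds 5 CG pairs and the second 21, where the median over 21044 listed starts of coding genes was 10. Distances to a start are counted from the edge of the 300 bases around it, 250 before and 50 after. In wild type the nearest region ended 210 bp before the first start. The region over the second start was 2216 bp long with 40.2 normalised tags.

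Stat3 encodes the STAT protein of IL-6, IL-10 and IL-21 signalling. It was covered to 7.36% in the knockout and 5.47% in wild type, 5357 bp and 3981 bp, in 7 regions each. Its regions held 96.7 normalised tags in the knockout (81.5 to 114) and 60.3 in wild type (49.3 to 73.1), a ratio of 1.60 (1.24 to 2.10). Without the flanks, its covered length differed by enough to be counted as higher in the knockout, with 4186 bp in the knockout and 2581 bp in wild type. The strongest region of the Stat3 window lay over the gene start in both libraries. In the knockout this was chr11:100938850-100940265, of 1415 bp and 31.1 normalised tags (22.8 to 41.5), and in wild type chr11:100939013-100939856, of 843 bp and 13.1 normalised tags (8.26 to 19.7). All of the wild-type region lay inside the knockout region. The 250 bases before the Stat3 start, covered in both lists, hold 13 CG pairs, in capitals.
Stat3 start, chr11:100939541-100939790, minus strand: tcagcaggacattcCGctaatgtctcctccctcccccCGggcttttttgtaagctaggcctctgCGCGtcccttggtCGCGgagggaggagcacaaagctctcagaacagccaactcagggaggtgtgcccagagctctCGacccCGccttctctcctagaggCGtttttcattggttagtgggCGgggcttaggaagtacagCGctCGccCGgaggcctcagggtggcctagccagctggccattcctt

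Jak3, the kinase bound to the common gamma chain of the IL-2 receptor, had the largest relative difference of the measured windows. The gene is 14195 bp long, on chromosome 8 at 71676383 to 71690577. Its window was covered to 15.1% in the knockout and 4.75% in wild type, 5160 bp in 6 regions and 1625 bp in 3, a ratio of 3.18. Normalised tags were 82.9 in the knockout (68.8 to 98.9) and 25.4 in wild type (18.4 to 34.1), a ratio of 3.27 (2.28 to 4.69). Places without a called region add nothing to these sums, so the interval is narrower than the full counting error. The knockout share placed Jak3 above 95.7% of all coding windows and the wild-type share above 78.4%. Its difference of 10.3 points exceeded that of 98.7% of coding windows with a region. Of those 14282 windows, the 10241 with a mean share under 5% could not reach such a difference.

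Most of the Jak3 difference lay in front of the gene. The 10 kb upstream held 2819 bp in the knockout and 0 bp in wild type. The knockout regions there and at the start were chr8:71669396-71670192 with 14.5 normalised tags, chr8:71672720-71673913 with 16.9 and chr8:71675553-71676802 with 22.0 (15.1 to 31.0). The last of these reached 0.42 kb into the gene and covered its start, whereas the nearest wild-type region was 1249 bp away. The first lay wholly in Unc13a, a gene of synaptic vesicle release, where the knockout had 796 bp and wild type 0 bp. Within the gene body the lists were closer, with 1559 bp in the knockout and 1125 bp in wild type, below the length needed to measure a gene body. Regions of the 2 libraries hardly met, with 30 bp in both lists, 0.444% of the bases in either, against 19.9% over all coding windows. That last figure pools regions of every length, of which short ones met less often. The longest at Jak3 were 1249 bp in the knockout and 625 bp in wild type. The bases before the start, covered in the knockout list only, hold 8 CG pairs.
Jak3 start, chr8:71676133-71676382, plus strand: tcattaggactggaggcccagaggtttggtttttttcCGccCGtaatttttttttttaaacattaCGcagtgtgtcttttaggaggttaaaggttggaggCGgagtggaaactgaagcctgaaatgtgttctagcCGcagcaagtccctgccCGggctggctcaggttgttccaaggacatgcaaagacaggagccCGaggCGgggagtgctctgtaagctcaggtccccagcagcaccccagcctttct

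Jak1, the kinase bound to the IL-2 receptor beta chain and to many other cytokine receptors, was covered almost equally in the 2 libraries. It lies on chromosome 4 at 101151974 to 101265282, on the minus strand. Cover came to 15531 bp in 19 regions in the knockout and 15437 bp in 18 regions in wild type, 11.7% and 11.6% of the window. Normalised tags were 260.05 in the knockout (235 to 287) and 249 in wild type (226 to 274), with a ratio of 1.04 (0.907 to 1.20). The cover was spread along the gene as many short regions, the longest of 1721 bp in the knockout and 2155 bp in wild type. In both lists were 7009 bp, 45.1% of the knockout length and 45.4% of the wild-type length, where all coding windows together had 38.4% and 29.3%. The knockout region chr4:101239489-101240970 with 27.7 normalised tags lay inside the longest wild-type region, chr4:101239023-101241178 with 41.7. The nearest knockout region was 3840 bp from the gene start, where wild type had a region of 500 bp with 8.16 normalised tags (4.46 to 13.7). The letters there, with 19 CG pairs, are shown as the start covered in the wild-type list only.
Jak1 start, chr4:101265224-101265473, minus strand: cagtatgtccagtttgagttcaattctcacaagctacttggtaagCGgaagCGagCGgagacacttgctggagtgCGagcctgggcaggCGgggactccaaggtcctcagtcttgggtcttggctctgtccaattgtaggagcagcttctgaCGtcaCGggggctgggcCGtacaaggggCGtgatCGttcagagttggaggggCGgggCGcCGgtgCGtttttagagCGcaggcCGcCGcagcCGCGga

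Jak2, the kinase of the erythropoietin, interferon gamma and IL-12 receptors, was among the least covered of the windows. It lies on chromosome 19 at 29251803 to 29313095, and was covered over 1813 bp in 3 regions in the knockout and 2413 bp in 2 regions in wild type. Normalised tags were 29.8 in the knockout (21.6 to 39.9) and 33.2 in wild type (25.1 to 43.0), and the interval of their ratio, 0.590 to 1.35, spanned equality. All cover lay between the gene start and the midpoint. Knockout regions of 813 bp and 500 bp lay inside wild-type regions of 991 bp and 1422 bp.

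Stat4 encodes the STAT protein of IL-12 signalling and of type 1 helper cells. On chromosome 1 at 51987106 to 52107189, its window was covered over 8130 bp in the knockout and 6032 bp in wild type, 5.80% and 4.31%. Normalised tags were 146 in the knockout (128 to 167) and 96.2 in wild type (82.1 to 112), a ratio of 1.52 (1.24 to 1.88). Part of this lay beyond the gene end, where the knockout had chr1:52111791-52113880, a region of 2089 bp and 35.2 normalised tags (26.3 to 46.2) with no base in the wild-type list. Inside the gene body the covered lengths were almost the same, 5541 bp in the knockout and 5532 bp in wild type, so that the longer knockout cover of this window depends on the flanks. A cluster of regions stood between 20.7 and 38.6 kb into the gene in the knockout and between 23.6 and 38.6 kb in wild type. The strongest there were chr1:52010476-52011586 with 23.3 normalised tags in the knockout and chr1:52024646-52025665 with 18.1 in wild type.

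The second listed start of Stat4 fell in a knockout region of 795 bp with 14.9 normalised tags (9.34 to 22.6), and the nearest wild-type region was 2402 bp away. Its 250 upstream bases are printed because they hold the stretch GAAAGTGAAA, in capitals, 2 copies of GAAA set 2 bases apart, the core of the element bound by interferon-activated STAT complexes and by interferon regulatory factors.
Stat4 second start, chr1:52007990-52008239, plus strand: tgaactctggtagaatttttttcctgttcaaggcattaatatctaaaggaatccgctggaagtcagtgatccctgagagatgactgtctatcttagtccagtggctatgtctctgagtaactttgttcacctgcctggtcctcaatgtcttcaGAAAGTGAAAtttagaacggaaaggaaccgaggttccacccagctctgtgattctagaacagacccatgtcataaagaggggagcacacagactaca
On either strand, 2.98% of the 21044 listed starts of coding genes hold this spaced pair within the same 250 bases. Of the 12 starts listed for the 9 genes, Stat2 and this Stat4 start had a match. TTCNNNGAA, the palindrome that STAT dimers bind, was in 6.64% of all starts and in none of the 12. A match or its lack describes these letters and not binding.

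Stat6, the STAT protein of IL-4 and IL-13, had less cover in the knockout over its window and the reverse over its body. It lies on chromosome 10 at 127642955 to 127660987. The window held 3404 bp in 6 regions in the knockout and 4903 bp in 8 regions in wild type, 8.95% and 12.9%. Normalised tags were 55.4 in the knockout (44.1 to 68.8) and 72.5 in wild type (60.4 to 86.5), with a ratio of 0.764 (0.573 to 1.02). The gene body alone held 1730 bp in the knockout and 1213 bp in wild type. At a common tag threshold for regions of 500 bp, which removed wild-type regions only, the windows were equal at 100% of wild type. The regions of the 2 libraries hardly overlapped, with 168 bp in both lists, 2.06% of the bases in either, against 19.9% over all coding windows. That last figure pools regions of every length, up to 58880 bp in the knockout and 59059 bp in wild type. The longest at Stat6 were 635 bp and 794 bp, and over all coding windows short regions met less often. Upstream of the gene the knockout had 0 bp and wild type 1294 bp. The 10 kb downstream held 1674 bp in the knockout and 2396 bp in wild type. Nab2, a neighbouring gene that encodes a corepressor of EGR factors, held 1243 bp in the knockout and 500 bp in wild type.

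Stat2, which works with other STAT proteins in the response to type I interferon, had the shortest covered length of the 9 windows in both libraries. Its window, around 128270498 to 128292853 on chromosome 10, held 1000 bp in 2 regions in the knockout and 500 bp in 1 region in wild type, too little to be measured by the rule of size. The region inside the gene was found in both, chr10:128288652-128289152 with 7.78 normalised tags in the knockout (3.95 to 13.8) and chr10:128288522-128289022 with 7.29 in wild type (3.83 to 12.6). The second knockout region, of 7.44 normalised tags, lay beyond the gene end and had no wild-type partner. All 3 had the smallest length a region can take, 500 bp.

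**Figure D3:**
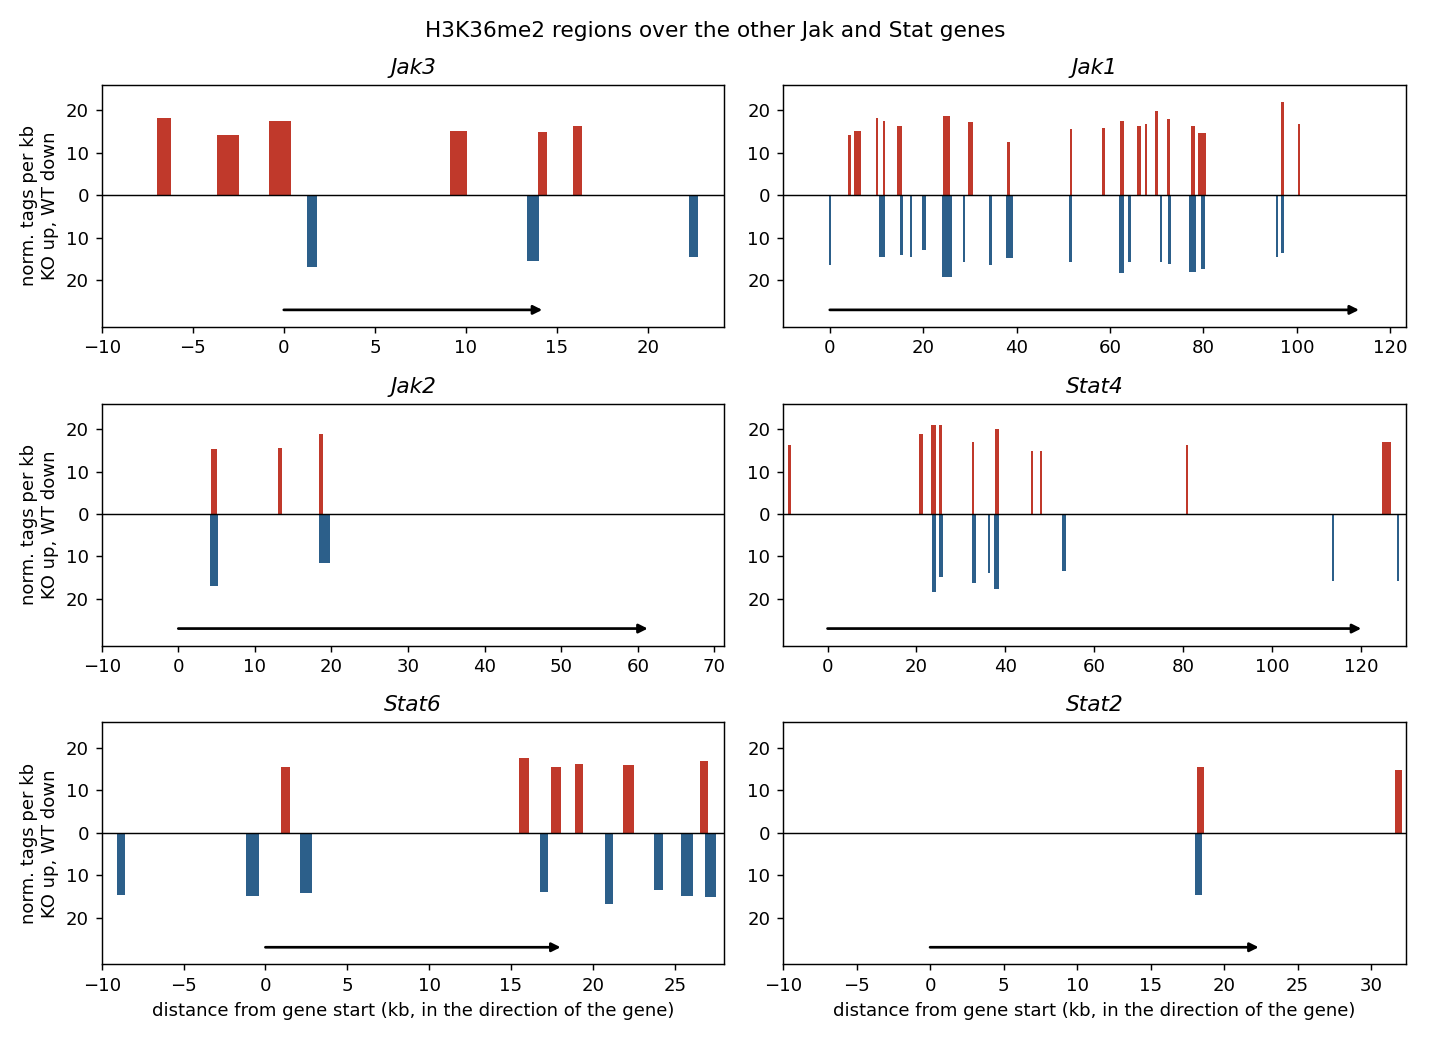
Regions over Jak3, Jak1, Jak2, Stat4, Stat6 and Stat2, knockout upward in red and wild type downward in blue, against distance in kb from the gene start in the direction of the gene. Block height is normalised tags per kb. Upstream of Jak3 there are knockout regions only, upstream of Stat6 wild-type regions only, and the Jak1 body is filled with short regions in both.

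Along the genes, the widest gap in pooled covered share between the libraries stood upstream. Summed over the 9 genes, the 10 kb upstream were covered to 16.7% in the knockout and 9.19% in wild type. From start to midpoint the shares were 14.9% and 13.7%, from midpoint to end 6.54% and 5.36%, and in the 10 kb downstream 6.94% and 7.41%, each with the knockout first. Stat5b gave 16312 bp of the 37677 bp between start and midpoint in the knockout, and for Jak1, Jak3, Stat6 and Stat2 the knockout share was higher beyond the midpoint than before it. Over all coding genes with a listed strand, the 10 kb upstream were covered to 2.74% in the knockout and 2.99% in wild type. From start to midpoint the shares were 2.05% and 2.67%, from midpoint to end 1.81% and 2.49%, and downstream 3.11% and 3.45%. In all these genes together the knockout share came nearer to the wild-type share in both flanks than within the gene. The stretches of Stat5a and Stat5b overlap and were counted for each. Stat5a and Stat5b gave 7565 bp and 3447 bp of the 15002 upstream bp in the knockout, and 4057 bp and 2408 bp of the 8274 in wild type. Jak3, Stat3 and Stat4 also had more upstream cover in the knockout, whereas Stat6 and Jak1 had upstream cover in wild type alone. Jak2 and Stat2 had none in either library.

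**Figure D4:**
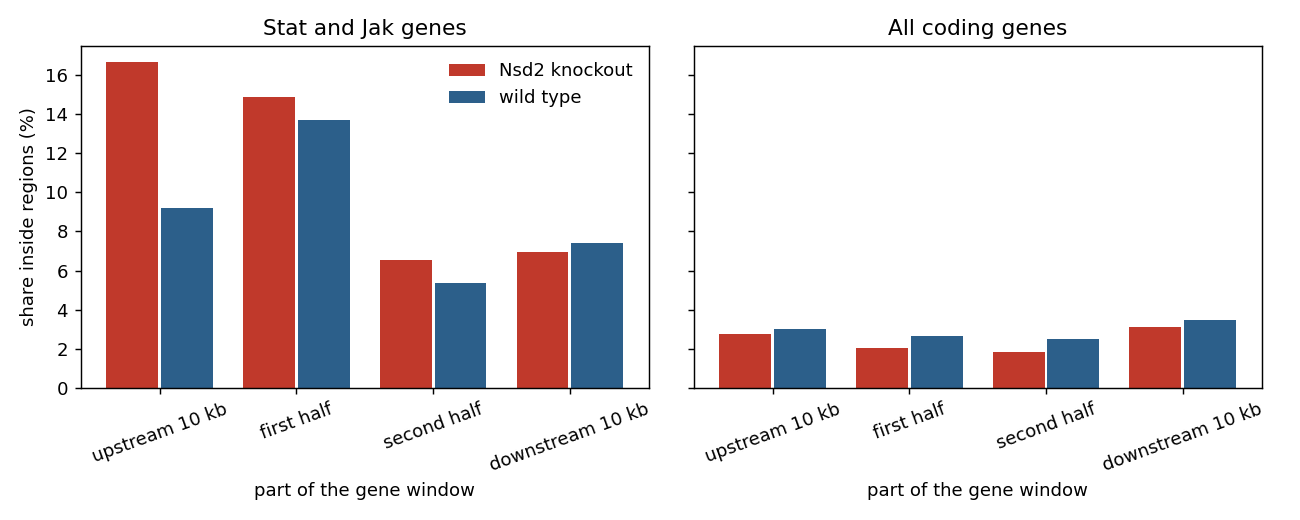
Share of base pairs inside regions, in percent, for the 10 kb upstream, the gene from start to midpoint and from midpoint to end, and the 10 kb downstream, knockout in red and wild type in blue. The Stat and Jak genes (left) are covered to 16.7% upstream in the knockout and 9.19% in wild type, while no section of all coding genes (right) passes 3.45%.

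A region lay over a listed start, in the span of 300 bases around it, for 5 of the 9 genes in the knockout and 4 in wild type. Stat3, Stat5a and Stat5b were covered in both lists, Stat5b only at its second listed start. Stat4 and Jak3 had such a region in the knockout list and Jak1 in the wild-type list. Among 17273 coding genes with a listed start, 11.4% had one in the knockout and 11.5% in wild type. The listed Stat5b starts lie inside the gene as annotated. The other of them, with 40 CG pairs, lay in a gap of the cover, 135 bp from the nearest knockout region and 1069 bp from the nearest wild-type region.

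The regions of both libraries met in part. Of the 65 knockout regions over the 9 genes, 30 had a base in a wild-type region, 46.2% (exact Clopper-Pearson interval 33.7 to 59.0), and over all coding windows 40.9% did. Of the 63 wild-type regions, 32 had a base in a knockout region, 50.8% (37.9 to 63.6), against 30.6% over all coding windows. Among regions of at least 1 kb, 10 of 15 knockout and 13 of 14 wild-type regions were met by the other library, where all coding windows had 80.8% and 69.1%. Among those of 500 bp, 9 of 24 knockout and 5 of 26 wild-type regions were, where all coding windows had 25.8% and 17.0%. A longer region meets a minimum of 1 bp more easily. The 2 knockout regions of at least 1 kb at Jak3 were among those without a wild-type base. Tags per kb of covered length were 17.1 in the knockout and 16.02 in wild type over the 9 genes, and 17.3 and 16.04 over all coding windows.

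**Figure D5:**
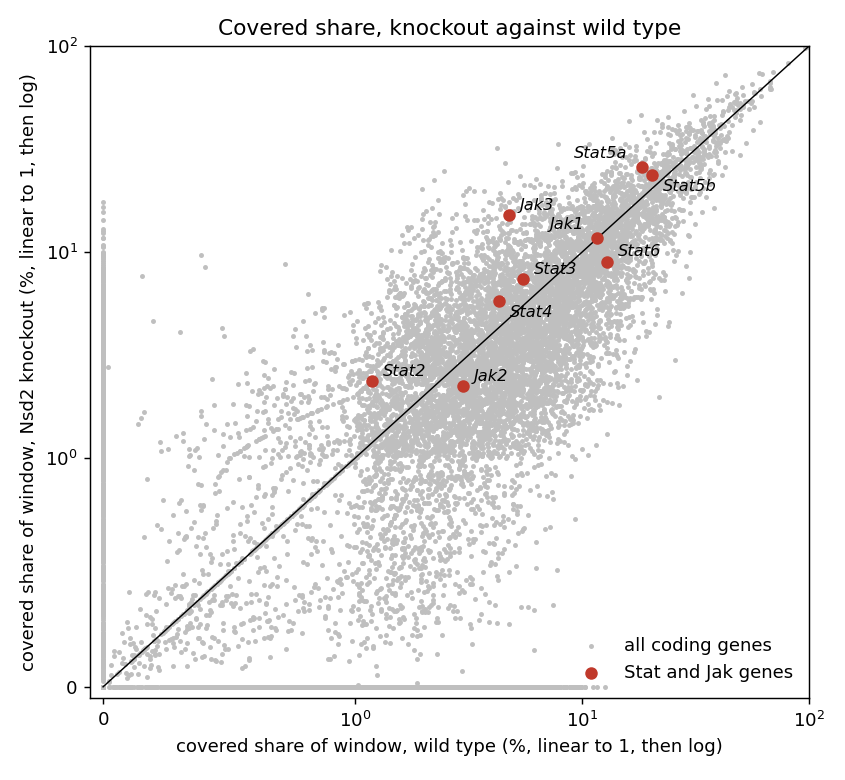
Covered share of the gene window in the knockout (vertical) against wild type (horizontal), in percent, on axes that are linear up to 1 and logarithmic above (log scale), for all 21627 coding genes (grey) and the Stat and Jak genes (red), with the line of equality. Jak3 lies farthest above the line among the measured members, at 15.1% and 4.75%, and Stat6 and Jak2 lie below it.

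Of 18 cytokine receptor genes, chosen with earlier results known, 17 held a region in each library, and their windows were covered to 15.8% in the knockout and 16.1% in wild type. By the rule of size 1 of 14 measured windows was higher and 2 were lower in the knockout, beside 16.5% higher and 40.5% lower over all coding windows. Il10ra, a chain of the IL-10 receptor, was covered to 20.2% in the knockout and 14.1% in wild type. The lower windows were Ifnar2 and Il15ra, the private chain of the IL-15 receptor, which held 500 bp in the knockout and 3169 bp in wild type. Il2rb, the IL-2 receptor chain that JAK1 binds, was covered to 50.3% and 45.5%, again knockout first, and Il2rg, the common gamma chain that JAK3 binds, to 11.95% and 7.93%. The median difference of the list was 0.05 points.

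Windows of 17 inhibitors of the pathway were covered to 11.5% in the knockout and 9.77% in wild type, and of 10 measured, 2 were higher and 2 lower, with the same 16.5% and 40.5% as background. Pias4, an inhibitor of STAT activity and a SUMO ligase, was covered over 15514 bp in the knockout and 6116 bp in wild type. Socs3, which blocks JAK kinases at IL-6 family receptors, was covered to 26.2% in the knockout and 10.1% in wild type, and Socs1, which inhibits JAK kinases, to 72.9% and 62.03%. The lower windows were Socs5 and Pias1. The median difference of this list was 0 points.

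Among 15 genes that STAT proteins are known to regulate, cover was 13.8% in both libraries. Of 13 measured windows, 2 were higher and 1 was lower in the knockout, again beside 16.5% and 40.5%, with a median difference of -0.38 points. Gata3, the type 2 helper cell factor and a STAT6 target, was covered over 6976 bp in the knockout and 4317 bp in wild type, and Prdm1, encoding BLIMP1, over 2572 bp and 636 bp. Pim1, a kinase gene induced by STAT5, was covered to 36.6% in the knockout and 43.5% in wild type.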

How the data were processed

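H3K36me2 was profiled in 1 knockout and 1 wild-type library with an in situ ChIP kit and a transposase index kit, per the labels' protocols. Bowtie2, Trim Galore, Picard, deepTools and HOMER were used with mm10, per the submitters' processing notes. The antibody, any input and any spike-in are not given there. Regions were called by the authors with HOMER findPeaks in histone style on each library alone, per the file headers, with peaks of 500 bp stitched into regions. The deposited signal of a region is its normalised tag count, scaled to 10000000 tags. The deposited score has tags per peak as its scale, going by its lowest values, and served only as a filter. The authors' clonal ratio was not used. Scaling removes any genome-wide change in the mark.

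Covered length is the length of a window inside regions, cut at the window's ends, and tags are those of whole overlapping regions. Turned back into tags with each library's total, 100% of the values below 10 were multiples of 0.5 tags (tolerance 0.05), and Poisson and exact binomial 95% intervals were computed on these. Reads carry no molecular identifiers, so intervals cover counting error only, and that only within called regions. Gene positions and promoters came from RefSeq GRCm38.p6, and all 9 genes matched. No genome sequence was used here. Python 3.11.15, numpy 2.4.6, pandas 2.3.3 and scipy 1.17.1 were used, and the code was tested on simulated lists.

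Members, lists and rules were chosen with earlier results of these data known. Named were the 9 genes, the 3 genes of each pathway list with the largest difference in covered share, neighbours inside a window and the 3 windows nearest to that of the member with the highest wild-type covered share, among genes of at least 10 kb. Il2rg, Ifnar2, Prdm1, Socs5, Pias1 and the single marker genes were named after their values were seen. Alternatives changed flanks, thresholds, overlap, merging and scaling. Family members outside the 9 were not analysed here, and 1 gene that the rule names and 1 marker gene are not reported here.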

Additional observations from a re-analysis of the deposited data

How the results depend on the processing

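The 9 alternatives were flanks of 0, 5 and 50 kb, regions under 1 kb left out, the higher-scoring 50% of regions, a common tag threshold for regions of 500 bp, at least 50% of a region inside the window, merging over gaps up to 1 kb, and division of knockout values by whole-list ratios. Under all of them knockout covered length stayed above wild type over the joined windows (112% to 156%) and the Stat5b, Stat5a and Stat3 locus (110.3% to 160.3%). The top values came under division, where the joined windows reached 155.8%. Division and the common threshold could not have brought a longer knockout length below wild type. The first only raises knockout values, as the whole-list knockout length was 74.4% of wild type. The second removed wild-type regions only. The rule of 50% inside the window left both values as reported. Under the other alternatives the joined windows ran from 112% in gene bodies to 133.6% without regions under 1 kb, and the locus from 110.3% to 135.4%. Knockout tags were 124% of wild type as reported, 142.4% at the common threshold, 139.3% in gene bodies, 136.03% in the higher-scoring regions, 138.1% without regions under 1 kb and 154.1% under division. Region numbers ranged from 103.2% to 141.5%. The windows past the rule of size, all higher, numbered 3 of 8 measured at the common threshold (27.1% of all coding windows), 3 of 7 in the higher-scoring regions (23.7%), 3 of 5 without regions under 1 kb (25.8%) and 5 of 8 under division (33.2%), in place of 1 of 8 (16.5%). Jak3 was among them under all alternatives but gene bodies, where Stat3 was. Stat3, Stat5a, Stat5b and Jak3 stayed above wild type under every alternative that gave a value. Stat4 did so too, but in gene bodies only at 100.2%, close to equality. Stat2 had a value under 6 alternatives. It was above wild type under 4 of them and at 100% in gene bodies and with flanks of 5 kb. Jak1 (91.4% to 138%), Jak2 (0% to 119%) and Stat6 (69.4% to 149%) went to both sides. The cause was not tested. Over all coding windows, 1030 of 6252 were higher and 2531 lower as reported. The higher share ran from 11.5% with flanks of 50 kb to 33.2% under division, and the lower share from 24.7% under division to 46.5% in gene bodies. Counts ran from 505 of 3655 in gene bodies to 2314 of 6966 under division for higher windows, and from 1009 of 2469 without regions under 1 kb to 4426 of 11547 with flanks of 50 kb for lower ones. With 50% of a region covered as the measure of sharing, 38.5% of knockout and 41.3% of wild-type regions were shared. No paired analysis was possible because each genotype has 1 library. The tag threshold followed each library's depth, 12 in the knockout and 13 in wild type, and weaker places are not in the lists.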

Other observations

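The coding windows nearest to that of Stat5b in both libraries, among genes of at least 10 kb, were those of Birc3, an inhibitor of apoptosis, with 23.3% in the knockout and 20.1% in wild type, Ccnd3, a cyclin gene, with 22.8% and 20.3%, and Dvl1, a WNT pathway gene, with 24.2% and 21.0%, each 0.874 points or less away. Nearness over 2 libraries is a description only.

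Other coding genes reach into the windows. B3gnt3, a glycosyltransferase gene after Jak3, held 500 bp in each library, and Insl3, a hormone gene at the end of Jak3, 218 bp in the knockout and 625 bp in wild type. Apof and Il23a beside Stat2, Raver2 beside Jak1, Insl6 beside Jak2 and Ghdc beside Stat5b held no region inside the windows in either library.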
